A study of Chlorella vulgaris with 6 samples.

Results

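A set of 16 transcripts of the green alga Chlorella vulgaris stood lower in the mutant EMS-25 than in both the mutant UV-715 and the wild type, among 18600 features of a transcriptome assembled from the reads. They were chosen by the deposited values themselves: a mean over the 6 libraries of at least 30, the lowest UV-715 or wild-type value at least 1.4 times the higher EMS-25 value, and a higher of the UV-715 and wild-type means less than 25% above the lower. Among 4891 features averaging 30 or more, 3167 met the condition on the UV-715 and wild-type means, and 16 of these met the rule in full. The direction of the difference and the near equality of UV-715 and wild type therefore follow from the choice and are given as a description. For 15 of the 16 the label fits the values. The other one, TRINITY_DN10218_c0_g1, was listed at 0 in both EMS-25 libraries but also in 1 UV-715 and 1 wild-type library, and it met the rule because 0 is not below 1.4 times 0.

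Chlorella vulgaris is a unicellular green alga that stores carbon as starch and as oil (triacylglycerol), and in many green algae oil accumulates when growth stops. Ethyl methanesulfonate (EMS) alkylates guanine and mainly causes single base changes, while ultraviolet light joins neighbouring pyrimidines, and a mutagenised line usually carries many changes besides the one it was picked for. The features are assembly identifiers without gene names, so no role can be given to any of them. In an identifier of the kind TRINITY_DN3811_c0_g2, DN3811 is a cluster of reads, c0 a component of that cluster and g2 a gene-level feature. Features of the same component come from connected sequence, and reads from one gene can be divided between them.

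The 3 groups, with 2 libraries of polyadenylated RNA each, were EMS-25, labelled an EMS mutant, UV-715, labelled a UV mutant, and the wild type, all given as strain SAG 211-12. The series title describes the mutants as producing much lipid, and the labels describe UV light of 254 nm, after which single colonies were taken, so that UV-715 stands for 1 isolate; they do not describe the EMS treatment. All cultures grew in Bold's Basal medium under continuous light, and RNA was taken from cultures of 14 days in stationary phase at an optical density of 5, before sequencing as pairs of 75 bp reads. Both libraries of a strain are termed biological replicates without being tied to separate cultures, so any p-value measures the spread between these libraries, which may be partly technical. In bulk RNA of a culture, fewer cells that hold a transcript and less of it per cell cannot be told apart.

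The deposited values are a signal normalised across libraries by the authors, with library sums from 970974 to 1029717, and the number of reads behind them is not given. Steps in the low values put the depth of the EMS-25 libraries at 0.983 and 0.396, of the UV-715 libraries at 1.049 and 0.495 and of the wild-type libraries at 1 and 0.245 (replicates 1 and 2, relative to wild type replicate 1). Replicate 2 was thus the shallower library in every strain. EMS-25 listed 1485 and 3204 features at 0, UV-715 1406 and 2826, and wild type 1376 and 4177.

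Together the 16 transcripts summed to 863 and 818 in the EMS-25 libraries, against 1696 and 1559 in UV-715 and 1613 and 1719.8 in wild type. They made up 0.0838% and 0.0817% of the whole signal in EMS-25, 0.171% and 0.161% in UV-715 and 0.159% and 0.174% in wild type. These sums and shares include TRINITY_DN10218_c0_g1, with 115 in UV-715 replicate 1, 122 in wild type replicate 2 and 0 in all other libraries. Leaving out TRINITY_DN10218_c0_g1, the mean in EMS-25 was between 0.329 and 0.633 of the wild-type mean, with a median of 0.544. The median ratio of EMS-25 to UV-715 was 0.531, and that of UV-715 to wild type 0.978. The differences were thus mostly moderate: 5 of these 15 transcripts had an EMS-25 mean at or below 0.5 of the wild-type mean. Most were not abundant either, since 3 of the 16 had a mean of 100 or more and 11 a mean under 60.

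**Figure D1:**
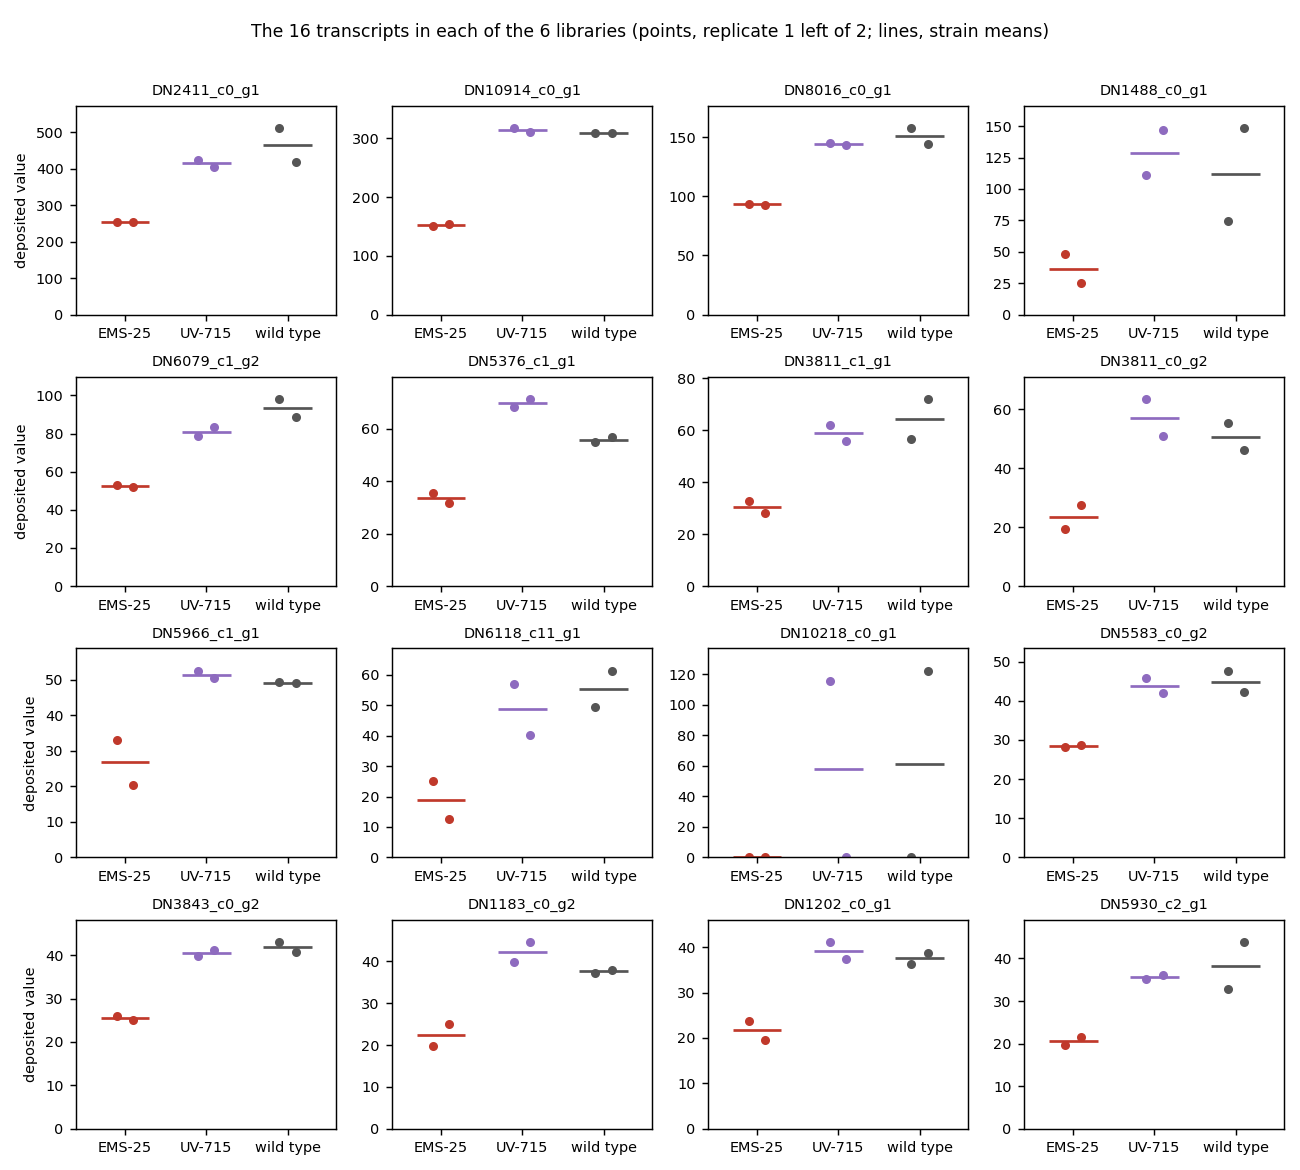
Deposited value (y axis, from 0, a scale of its own in each panel) of the 16 transcripts in EMS-25, UV-715 and wild type; points are libraries and lines strain means (n = 2). In 15 panels both EMS-25 points lie below the other 4, and in the panel of DN10218_c0_g1 1 UV-715 and 1 wild-type point lie at 0 with them.

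The widest gap was that of TRINITY_DN10914_c0_g1, the only feature of its cluster. It had 151 and 155 in EMS-25, against 318 and 310.1 in UV-715 and 309.7 and 309 in wild type. The strain means were 153 ± 2.56 in EMS-25, 314 ± 5.21 in UV-715 and 309 ± 0.51 in wild type (SD, n = 2 each), so EMS-25 stood at 0.495 of wild type and 0.488 of UV-715. Replicates of this transcript lay within 1.02-fold of each other in EMS-25 and in UV-715, and UV-715 and wild type were 1.01-fold apart. Its lowest value outside EMS-25 was 1.99 times its highest value in EMS-25, the widest gap among the 15 transcripts for which this ratio exists.

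A further 3 transcripts combined a high level with closely matching EMS-25 replicates. TRINITY_DN2411_c0_g1 had 253 and 253 in EMS-25, against 424 and 405 in UV-715 and 511 and 419 in wild type. Here wild type replicate 1 stood above the other 3 libraries outside EMS-25, and the wild-type mean of 465 ± 65.2 carried most of the spread, beside 253 ± 0.56 in EMS-25 and 415 ± 13.7 in UV-715. The other feature of its cluster, TRINITY_DN2411_c1_g1, which the rule did not choose, had 66.9 and 59.8 in EMS-25, 93.3 and 99 in UV-715 and 96.5 and 73.6 in wild type, so that its EMS-25 values were also the lowest, without passing the test (adjusted p 0.294 against wild type and 0.0878 against UV-715, limma). TRINITY_DN8016_c0_g1, again alone in its cluster, had 93.7 and 92.6 in EMS-25, 145 and 143 in UV-715 and 158 and 144 in wild type. Its EMS-25 mean was 0.617 of the wild-type mean and 0.646 of the UV-715 mean. TRINITY_DN6079_c1_g2 had 53 and 52.2 in EMS-25, 78.5 and 83.6 in UV-715 and 97.9 and 88.8 in wild type. It was the only member with both UV-715 values below both wild-type values, so its order was EMS-25, UV-715, wild type, with means of 52.6 ± 0.56, 81 ± 3.57 and 93.3 ± 6.43.

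TRINITY_DN5376_c1_g1 lay at the other edge of the rule, with UV-715 above wild type. It had 35.6 and 31.8 in EMS-25, 68.4 and 71.2 in UV-715 and 54.9 and 56.8 in wild type. The UV-715 mean was 1.249 times the wild-type mean, just inside the limit, and EMS-25 stood at 0.603 of wild type and 0.483 of UV-715. Both UV-715 values were above both wild-type values in 4 of the 16 transcripts, this one among them. Another feature of its cluster, TRINITY_DN5376_c0_g2, which is no member and was singled out only once its values were known, had 18.9 and 18.1 in EMS-25, 40.4 and 38.1 in UV-715 and 21.9 and 24.4 in wild type. In that feature the UV-715 mean was 1.69 times the wild-type mean (log2 fold change 0.74, adjusted p 0.0537, limma). It stood lower in EMS-25 than in UV-715 (log2 fold change -1.05, SE 0.14, adjusted p 0.0167, limma), but missed the threshold against wild type (log2 fold change -0.31, adjusted p 0.417). It lost its call against UV-715 when EMS-25 replicate 1 (adjusted p 0.0782) or 2 (0.106) was left out, when UV-715 replicate 1 (0.12) or 2 (0.124) was, and when no intensity trend was used (0.0684).

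**Figure D2:**
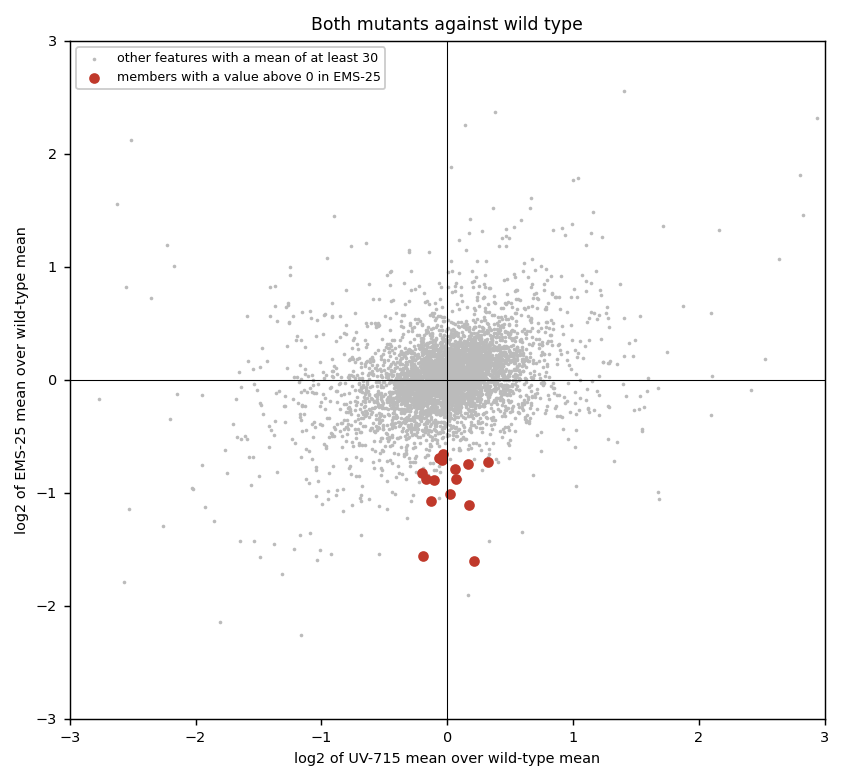
Log2 ratio of the EMS-25 mean to the wild-type mean (y axis) against that of the UV-715 mean to the wild-type mean (x axis) for features with a mean of at least 30; red points are the 15 members above 0 in EMS-25, grey points other features (4871, of which 5 fall outside the axes). The red points lie in a narrow column near 0 on the x axis and below 0 on the y axis, as the rule requires, with 2 of them well below the rest.

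A single cluster contributed a pair of members. TRINITY_DN3811_c1_g1 had 32.8 and 28.3 in EMS-25, 62 and 55.8 in UV-715 and 56.7 and 71.9 in wild type. TRINITY_DN3811_c0_g2 had 19.5 and 27.6 in EMS-25, 63.3 and 51.1 in UV-715 and 55.2 and 46.2 in wild type. They ranked just behind TRINITY_DN10914_c0_g1 in the gap between EMS-25 and the other strains, with a lowest other value 1.70 and 1.68 times the highest EMS-25 value. The third feature of the cluster, TRINITY_DN3811_c0_g1, was listed at 0 in all libraries but EMS-25 replicate 1, where it had 6.1. Summed over the cluster, EMS-25 had 58.4 and 55.8, UV-715 125 and 107 and wild type 112 and 118. The replicates of EMS-25 were 1.046-fold apart in this sum, against 1.16-fold and 1.41-fold in the 2 members alone.

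Another 5 transcripts were of low abundance, with EMS-25 replicates between 1.02-fold and 1.26-fold apart. TRINITY_DN5583_c0_g2 had 28.1 and 28.8 in EMS-25, 45.8 and 42 in UV-715 and 47.6 and 42.1 in wild type. TRINITY_DN3843_c0_g2 had 26.1 and 25.1 in EMS-25, 39.9 and 41.3 in UV-715 and 43 and 40.7 in wild type. In both, UV-715 and wild type overlapped and EMS-25 lay clear of them by the 1.4-fold that the rule asks for and little more (1.46 and 1.53 times). The gap was no wider in TRINITY_DN5930_c2_g1 (1.521), TRINITY_DN1202_c0_g1 (1.525) and TRINITY_DN1183_c0_g2 (1.487). TRINITY_DN5930_c2_g1 had 19.8 and 21.5 in EMS-25, 35.1 and 36.2 in UV-715 and 32.7 and 43.8 in wild type, where replicate 2, the shallowest library, was the highest. TRINITY_DN1202_c0_g1 had 23.8 and 19.6 in EMS-25, 41.1 and 37.4 in UV-715 and 36.3 and 38.8 in wild type. TRINITY_DN1183_c0_g2 had 19.8 and 25 in EMS-25, 39.8 and 44.6 in UV-715 and 37.2 and 38 in wild type. The last of these was another of the 4 members with both UV-715 values above both wild-type values, and its EMS-25 mean was 0.595 of wild type and 0.531 of UV-715.

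In a few transcripts the EMS-25 replicates lay far apart, and the 2 with the lowest ratio of EMS-25 to wild type were among them. TRINITY_DN1488_c0_g1 had 48.3 and 25 in EMS-25, 111 and 147 in UV-715 and 74.6 and 148 in wild type. Its EMS-25 mean of 36.6 ± 16.5 was 0.329 of the wild-type mean of 111 ± 52.2 and 0.284 of the UV-715 mean of 129 ± 25.7 (SD, n = 2 each), and the wild-type replicates were themselves 1.99-fold apart. TRINITY_DN6118_c11_g1 had 25.1 and 12.5 in EMS-25, 56.8 and 40.4 in UV-715 and 49.6 and 61.3 in wild type, with a mean of 18.8 ± 8.91 in EMS-25, 0.339 of wild type. TRINITY_DN5966_c1_g1 had 33.1 and 20.3 in EMS-25, 52.4 and 50.3 in UV-715 and 49.2 and 49 in wild type, so that its spread lay in EMS-25 and not in the other strains. The EMS-25 replicates of these 3 transcripts differed 1.94-fold, 2.01-fold and 1.63-fold, more than those of 99.0%, 98.2% and 95.7% of all features of similar level. In each of the 3 the lower value was that of replicate 2, the library with 0.396 of the depth of wild type replicate 1. In TRINITY_DN3811_c0_g2 (1.41-fold apart) and TRINITY_DN1183_c0_g2 (1.26-fold apart) the lower value was that of replicate 1. A part of depth in these spreads was not tested. Across the 15 transcripts the EMS-25 replicates differed by less than 25% in 10, and replicate 2 was the lower one in 9.

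**Figure D3:**
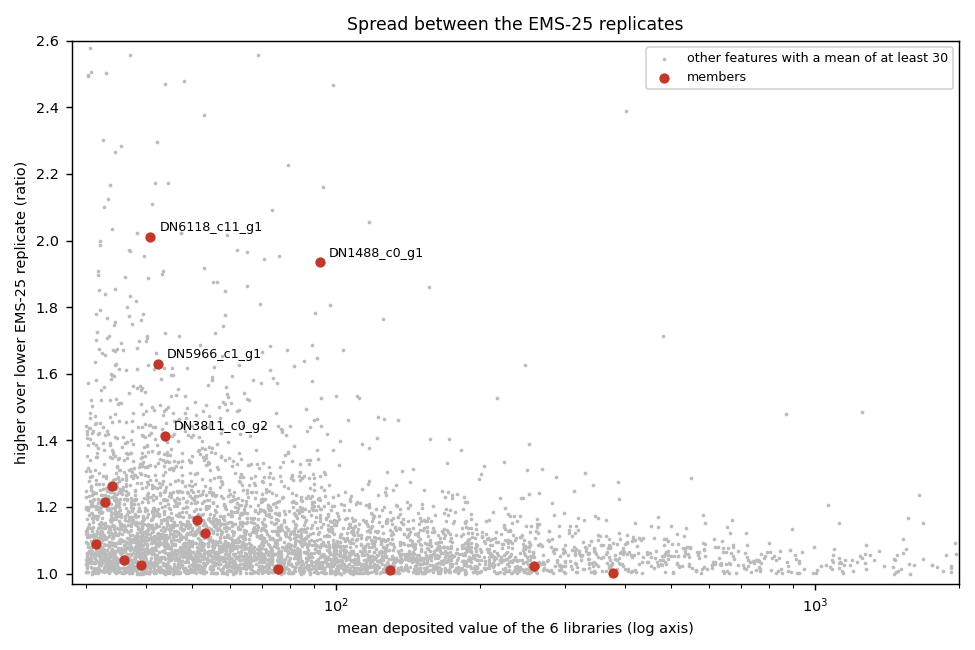
Ratio of the higher to the lower EMS-25 replicate (y axis) against the mean of the 6 libraries (x axis, log scale) for features with a mean of at least 30; red points are 15 members, grey points other features. Axes end at a ratio of 2.6 and a mean of 2000, which leaves out 91 grey points, and 6 features listed at 0 in an EMS-25 library are not drawn. The 4 named members lie above 1.4, while the 3 members with a mean of 100 or more lie close to 1.

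A limma fit over all 18096 features that reached 1 in 2 or more libraries gave the background for these differences. All 16 members were among the features tested. Against wild type, 5 of the 16 were called lower in EMS-25 at an adjusted p under 0.05, while 0.37% of all features tested were called lower and 1.15% in either direction. Against UV-715, 10 were called lower, with 1.88% of all features called lower and 4.65% in either direction. Since the same contrasts chose the members, nothing is read from these shares. The 5 called against both strains were TRINITY_DN10914_c0_g1, TRINITY_DN2411_c0_g1, TRINITY_DN8016_c0_g1, TRINITY_DN6079_c1_g2 and TRINITY_DN5376_c1_g1. No member was called between UV-715 and wild type, where 4.21% of all features were called. There 1 member had an unadjusted p under 0.05, as had 3621 of the 18096 features tested. The median log2 fold change of the 16 was -0.86 against wild type and -0.91 against UV-715, beside 0.0081 and -0.0072 over all features tested.

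The number of calls depended on every library. The 5 calls against wild type became 1 when any EMS-25 or UV-715 library was left out, 3 when wild type replicate 1 was and 2 when wild type replicate 2 was. The 10 calls against UV-715 became 3 without EMS-25 replicate 1, 2 without its replicate 2, 2 without UV-715 replicate 1, 1 without its replicate 2, and 6 without either wild-type library. Without the intensity trend in the variance no member was called against either strain. In a fit of only the strains compared, 1 and 6 were called.

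The rule's threshold cuts through a continuous range. Just inside it stood TRINITY_DN5583_c0_g2, TRINITY_DN5966_c1_g1 and TRINITY_DN6079_c1_g2, whose lowest value outside EMS-25 was 1.46, 1.478 and 1.482 times the highest EMS-25 value. Just outside were TRINITY_DN6028_c12_g1 and TRINITY_DN6187_c0_g1, both at 1.39, and TRINITY_DN8261_c0_g1 at 1.386. TRINITY_DN6187_c0_g1 had 228 and 226 in EMS-25, 339 and 320.1 in UV-715 and 318 and 319.7 in wild type, with replicates as close as those of the abundant members. TRINITY_DN8261_c0_g1 had 147 and 144 in EMS-25, 263 and 268 in UV-715 and 225 and 204 in wild type. By limma, TRINITY_DN6187_c0_g1 (adjusted p 0.01665 against wild type, 0.00426 against UV-715) and TRINITY_DN8261_c0_g1 (0.0238, 0.0023) were called lower against both strains. So were 5 of the 16 members, while TRINITY_DN6028_c12_g1 was called against neither strain (0.1355, 0.1103). At a threshold of 1.2-fold the rule gave 67 features, and at 2-fold only TRINITY_DN10218_c0_g1 was left, because of its zeros. The same rule with the strains exchanged or the direction turned gave 32 features that were higher in EMS-25 (median ratio to wild type 1.89) and 115 that were lower in UV-715 (0.528), beside 0.544 for the 15 transcripts here. The median level of the 15 was 43.8, that of the 32 was 84.95 and that of the 115 was 69.6, and no test was made between these lists.

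What the rule did not use directly is the company a feature keeps in the assembly. Of the 16 members, 10 (62.5%) had another feature in their component, where 1630 of the 4891 features of that minimum level (33.3%) had one. These shares were not matched for level, and reads divided between features can alter the values that the rule used. Nothing is read from the shares. The 10 members had 10 such partner features, none of them a member. Of the 9 partners that could be tested, 7 had a log2 fold change above 0 in EMS-25 against wild type and 5 against UV-715, with medians of 0.52 and 0.10. Where reads of a gene are divided between features, choosing a member low in EMS-25 can also choose a partner high there. A partner meeting the rule would also be a member, so nothing is read from these directions. No partner was called by limma in either comparison, where 1.15% and 4.65% of all features were. An unadjusted p under 0.05 was reached by 1 and 2 partners, and by 2448 and 3432 of the 18096 features tested.

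Adding the partner to the member reduced the difference in most of these components. The members were chosen for low EMS-25 values, and a partner meeting the rule would be a member itself. Smaller differences in the sums therefore follow in part from the choice, and nothing is read from them. The sum over the component met the same rule in 1 of the 10, the TRINITY_DN3811_c0 component. Its partner had 6.1 in EMS-25 replicate 1 and 0 in all other libraries. Both EMS-25 values stayed below the other 4 in 8 of the 10 sums, which is 16.1% among the 1555 components of 2 or more features and a mean of at least 30; since the member is part of each sum, nothing is read from that count. Leaving out the TRINITY_DN10218_c0 component, the median ratio of EMS-25 to wild type was 0.752 over the sums of 9 components, where the members alone had 0.563. The lowest ratios among these sums were 0.524 for TRINITY_DN3811_c0, 0.563 for TRINITY_DN1488_c0 and 0.563 for TRINITY_DN6079_c1. The last of these was also 0.563 in the member alone.

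The component of TRINITY_DN10218_c0_g1 showed an exchange between its features. TRINITY_DN10218_c0_g1 had 115 in UV-715 replicate 1 and 122 in wild type replicate 2 and was listed at 0 in the other 4 libraries, both of EMS-25 included. TRINITY_DN10218_c0_g2 had 121 and 114 in EMS-25, 0 and 130.4 in UV-715 and 122 and 0 in wild type. In every library the signal stood in 1 of the 2 features and never in both. The sum was 118 ± 5.04 in EMS-25, 123 ± 10.6 in UV-715 and 122 ± 0.03 in wild type (SD, n = 2 each), and the strains overlapped. The 0 of the member in EMS-25 thus went with a full value of its partner.

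A similar but smaller offset was seen within EMS-25 for TRINITY_DN5966_c1_g1. Its partner TRINITY_DN5966_c1_g2 had 3.69 and 17.6 in EMS-25, stood at 0 throughout UV-715 and had 0 and 1.19 in wild type, the higher value standing in the library where the member was lower. The sum was 36.8 and 37.9 in EMS-25, 52.4 and 50.3 in UV-715 and 49.2 and 50.1 in wild type. The replicates of EMS-25 were 1.03-fold apart in the sum, against 1.63-fold for the member, and EMS-25 stood at 0.752 of wild type in place of 0.544. In the TRINITY_DN3843_c0 component the partner was the larger feature, with 137 and 149.9 in EMS-25, 138 and 131 in UV-715 and 128 and 131 in wild type. The sum of both was 169 ± 8.18 in EMS-25, 175 ± 3.69 in UV-715 and 171 ± 0.09 in wild type, and the strains overlapped. The partner of TRINITY_DN1202_c0_g1 was also the larger one, at 97.9 and 101 in EMS-25, 116 and 117 in UV-715 and 106 and 101 in wild type, and the sum in EMS-25 was 0.859 of that in wild type.

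**Figure D4:**
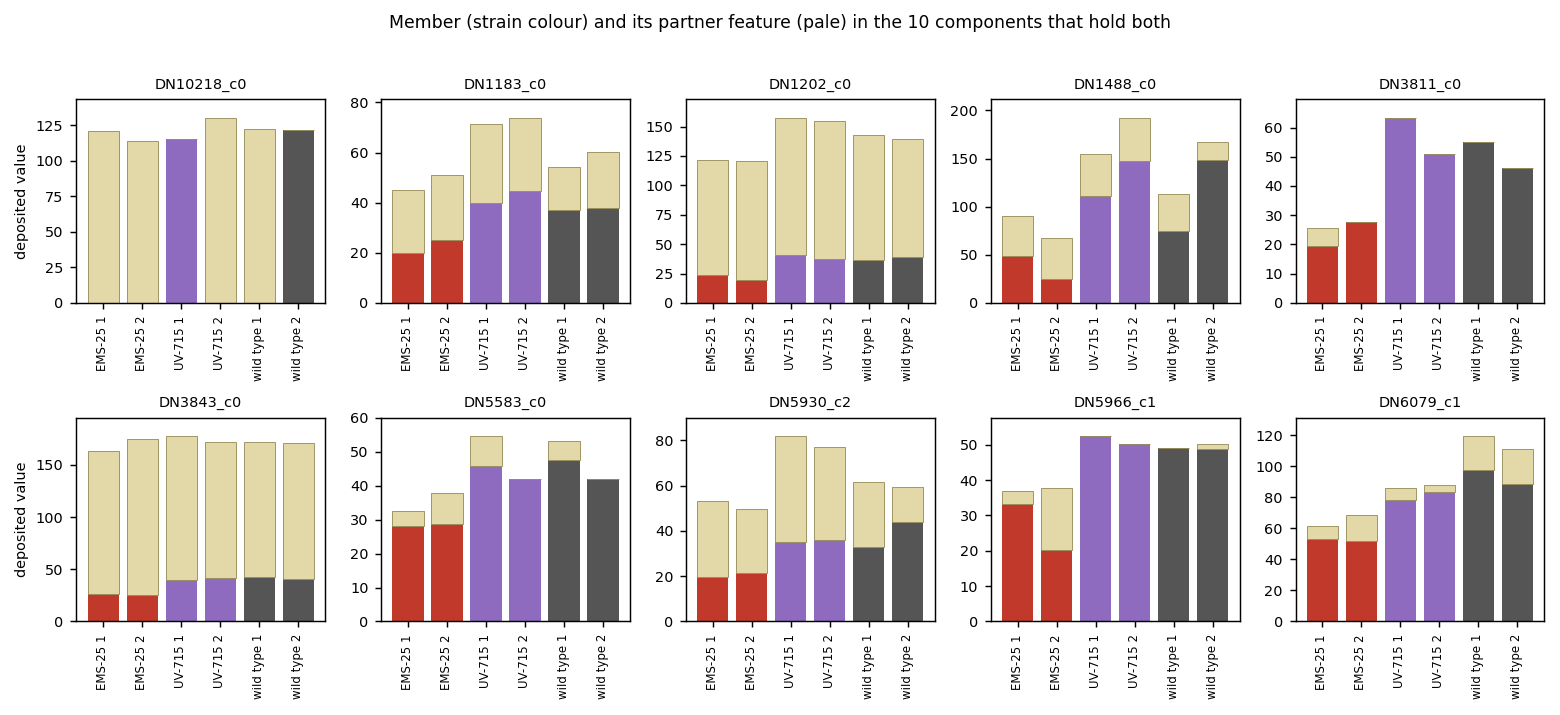
Deposited value (y axis, from 0, a scale of its own in each panel) in each library of the 10 members that have a partner (strain colours: red EMS-25, purple UV-715, grey wild type) with the partner feature stacked on top (pale). In DN10218_c0 the whole bar changes between the features from library to library at a near constant height, and in DN3843_c0 the stacked heights of the strains overlap.

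For 3 other components the partner altered how UV-715 compared with wild type. The partner of TRINITY_DN6079_c1_g2 had 8.39 and 16.4 in EMS-25, 7.46 and 4.21 in UV-715 and 21.5 and 22.5 in wild type, and the sum was 65 ± 5.1, 86.9 ± 1.27 and 115 ± 5.73 in EMS-25, UV-715 and wild type. Both mutants stood below wild type in the sum, as they did in the member alone. UV-715 was at 0.753 of wild type in the sum, against 0.868 in the member. The sum of TRINITY_DN5930_c2 was 51.6 ± 2.44 in EMS-25, 79.4 ± 3.43 in UV-715 and 60.4 ± 1.34 in wild type, and that of TRINITY_DN1183_c0 was 48.2 ± 4.31, 72.7 ± 1.71 and 57.2 ± 4.48. In these sums UV-715 stood above wild type by 1.31-fold and 1.27-fold, which is outside the limit that the members met. The partner of TRINITY_DN5583_c0_g2 was low, with 4.52 and 9.18 in EMS-25, 8.82 and 0 in UV-715 and 5.64 and 0 in wild type, listed at 0 in the shallower libraries of both UV-715 and wild type. The partner of TRINITY_DN1488_c0_g1 had 42.1 and 42.1 in EMS-25, 43.8 and 45.3 in UV-715 and 38.7 and 18.4 in wild type, lowest in the wild-type library where the member was highest. How reads were divided between a member and its partner was not tested.

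Clusters gather features whose relation is looser. The 16 members came from 15 clusters, 13 of which held 2 or more features, and 3 of these 13 (TRINITY_DN2411, TRINITY_DN3811 and TRINITY_DN5376) met the rule in their summed values, as did 0.337% of the 2080 clusters of 2 or more features and a mean of at least 30. Cluster sums in EMS-25 were the lowest of the strains without overlap in 7 of the 13, and in 14.8% of the 2080. The member is part of each sum here too, so nothing is read from either count. Of 75 further features of these clusters that could be tested, 1 was called between EMS-25 and wild type (1.15% of all features tested were) and 2 between EMS-25 and UV-715 (4.65%).

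The strongest of these calls ran opposite to the member beside it, and it was singled out with its values known. TRINITY_DN6118_c12_g1 had 146 and 146 in EMS-25, 44.2 and 36.7 in UV-715 and 43.7 and 35.7 in wild type, 3.68-fold higher in EMS-25 than in wild type and 3.61-fold higher than in UV-715. The test gave a log2 fold change of 1.86 against wild type (SE 0.14, adjusted p 0.00751, limma) and 1.83 against UV-715 (SE 0.14, adjusted p 0.00252). Against wild type the call was lost when EMS-25 replicate 1 (adjusted p 0.0851), EMS-25 replicate 2 (0.0895) or wild type replicate 2 (0.0617) was left out, and without the intensity trend (0.0864); against UV-715 it held in all 12 alternatives, with adjusted p between 0.00183 and 0.0431. Over the 20 features of the cluster the sum was 1144 ± 22.5 in EMS-25, 1077 ± 19.2 in UV-715 and 1037 ± 21.5 in wild type.

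**Figure D5:**
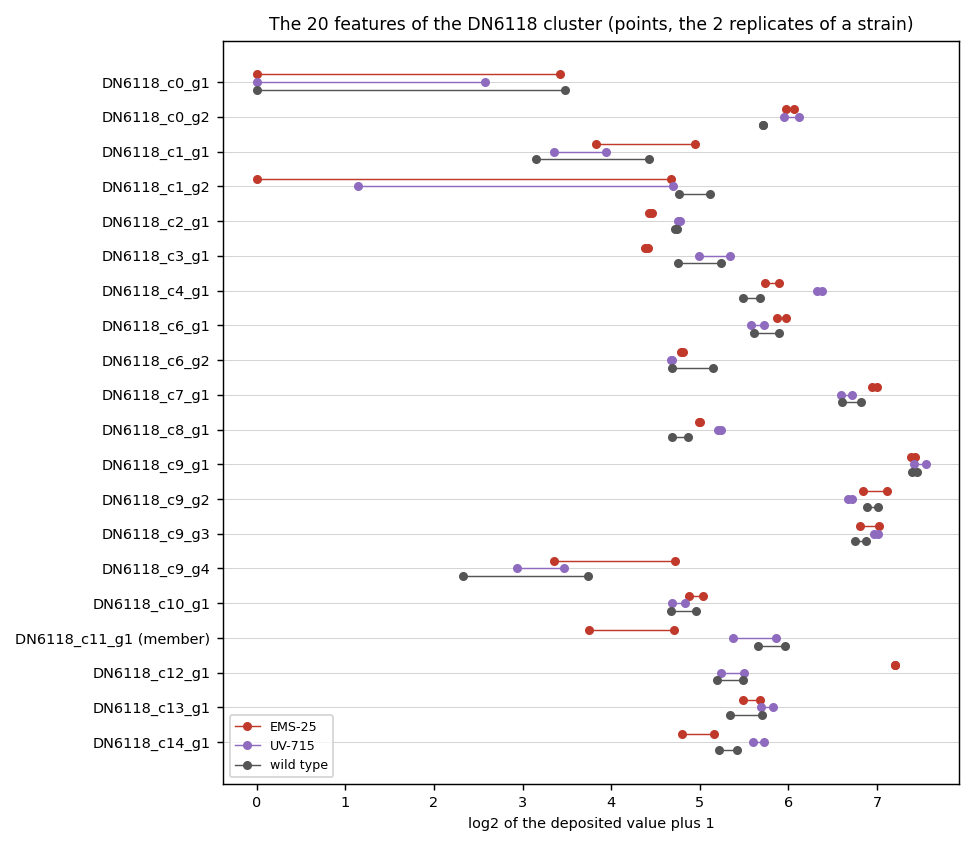
Log2 of the deposited value plus 1 (x axis) of the 20 features of the DN6118 cluster in EMS-25 (red, top of each row), UV-715 (purple) and wild type (grey); points are the 2 replicates, joined by a line. The member DN6118_c11_g1 lies to the left in EMS-25 and DN6118_c12_g1 to the right, at 146 in both EMS-25 libraries.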

How the data were processed

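The deposited table holds a normalised signal for 18600 features in 6 libraries; per the submitters' processing notes FastQC 0.11.5, Trimmomatic 0.32, RSEM and edgeR were used, without stated roles. The values are not whole and library sums are nearly equal, so no count model was run; how the assembly was made is, for these libraries, not given in the sources used here. The members and lists were chosen with earlier results of these data known. Features reaching 1 in 2 or more libraries were kept (18096; 504 left out). Their log2 values, after adding a pseudocount of 1, went into limma 3.58.1 (R 4.3.3) over all 6 libraries, with strain as the only term, an intensity trend and empirical Bayes moderation (2.66 prior and 3 residual degrees of freedom). Two-sided tests had Benjamini-Hochberg adjustment over the kept features, and a call is an adjusted p under 0.05. The fit was tested on simulated data. Log2 fold changes on this scale understate changes of low features. SDs are of deposited values (n = 2).

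Relative depth came from the log2 ratios of features averaging under 8 between a library and wild type replicate 1, which peak at ratios of small whole numbers. Similar level means a mean of 30 to 60, 60 to 120, or 120 and more. Members were named by fixed parts of a rule (widest gap, highest mean, nearest to the threshold, 0 in EMS-25, with a partner), which together took in all 16; other features of their clusters were picked with their values known. Alternatives were another pseudocount, no filter, equal library sums, no intensity trend, fits of only the strains compared, a replicate term, and each library left out. Other steps ran in Python 3.11.15 with scipy 1.17.1, pandas 2.3.3 and, for plots, matplotlib 3.10.9.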

Additional observations from a re-analysis of the deposited data

Results flagged for a closer look

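A pair of features outside the 16, in clusters that hold a member, differed in how the mutants stood against wild type, by the limma test that sets EMS-25 directly against UV-715. TRINITY_DN6118_c12_g1 had a log2 fold change of 1.83 in EMS-25 against UV-715 (adjusted p 0.00252), higher in both EMS-25 libraries than in all 4 others. TRINITY_DN5376_c0_g2 had a log2 fold change of -1.05 in EMS-25 against UV-715 (adjusted p 0.0167), lower in both EMS-25 libraries than in both of UV-715. Its UV-715 mean was 1.69 times its wild-type mean. Between EMS-25 and wild type it was not called (log2 fold change -0.31, adjusted p 0.417, limma).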

How the results depend on the processing

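The 5 members called against wild type became 0 without the intensity trend and 1 in a fit of only the strains compared, and ranged from 1 to 3 with each library left out. The 10 called against UV-715 became 0 without the intensity trend and 6 in a fit of only the strains compared, and ranged from 1 to 6 with each library left out. The cause was not tested. With the replicate number as a term (replicate block) 4 and 6 were called. Deviations of same-numbered libraries had correlations of 0.108, 0.144 and -0.079 over features for the 3 pairs of strains. Nothing in the labels ties equal numbers to each other, though replicate 2 was the shallower library in every strain. Whether equal numbers share a batch was not tested. Members called between UV-715 and wild type and partners called with EMS-25 stayed at 0 under all 12 alternatives. The median log2 fold change of the members against wild type was -0.876 with equal library sums and between -0.882 and -0.846 with each library left out (-0.858 with all). The rule gave 16 features at equal library sums (15 of them members), 1 at a 2-fold and 67 at a 1.2-fold threshold, 3 at a mean of at least 100 and 51 at a mean of at least 10, 29 without the condition on UV-715 and wild type, and 18 to 75 with each library left out, where the rule itself asks less of fewer libraries. All 16 members still met it without either EMS-25 library. This had to follow, since leaving out an EMS-25 value cannot narrow the gap or lower the mean. Of the members, 12 met it when UV-715 replicate 1 was left out, 15 for its replicate 2, 14 for wild type replicate 1 and 12 for its replicate 2. There too the gap cannot narrow, so members were lost by the conditions on the means. Applied to component sums, an alternative added after the data were seen, the rule gave 8 of 15574 components, 7 of which hold a member. For the 6 members alone in their component the sum is the member itself. Of the 10 member components with a partner feature, 1 met the rule. Of 426 refits of single log2 fold changes of the members and the 2 cluster features above, none changed sign, 319 kept their side of the threshold, 101 lost a call and 6 gained one. Those that kept their side include effects that were not called in the main fit. For the 15 members with values above 0 in EMS-25, the sign followed from the choice. Read counts are unknown, so the counting error of the low members could not be given, and wild type replicate 2 had 0.245 of the depth of replicate 1.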
